A study of Homo sapiens with 12 samples.

Results

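The comparison described here is the interaction between 2 manipulations of CIN85 in HOS cells: the effect of the CIN85 plasmid (upCIN85 minus Mock) minus the effect of CIN85 knockdown (siCIN85 minus siNeg). It was computed from the raw counts of all 12 libraries of the series in one fit, with no library left out. Of the 25141 genes in the table, 12542 passed edgeR's filter on low counts by group and are the members of this comparison. A negative interaction log2FC means that the log2FC of upCIN85 versus Mock was below that of siCIN85 versus siNeg, and a positive one that it was above. HOS is a human osteosarcoma cell line. The upCIN85 cells were a pool that resisted geneticin after transfection with pRc/CMV2-Rukl, a plasmid for full-length CIN85, and Mock cells were HOS with the empty vector. Knockdown (siCIN85) was by 3 pooled siRNAs to CIN85, with a non-targeting siRNA in siNeg. Each group had 3 libraries made from the 3′ ends of transcripts. The controls therefore differ from each other in vector, selection and transfection, and these differences cannot be told apart. Nothing in the labels ties a library to a separate culture, so p-values measure the spread between these libraries, which may be technical.

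CIN85, encoded by SH3KBP1, is an adaptor protein with SH3 domains. It binds the ubiquitin ligase CBL and the endophilins and takes part in the internalization of activated receptor tyrosine kinases, and it also links receptors to the actin cytoskeleton. If a gene follows the dose of such an adaptor, raising and lowering it should move the gene in opposite directions; a gene that responds to one manipulation alone, or to both in the same direction, gives a different pattern in the 2 arms.

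Library totals were 5334731 to 5774968 counts in Mock, 5726535 to 6049458 in upCIN85, 4011368 to 4174860 in siNeg and 3540641 to 3991517 in siCIN85. SH3KBP1 was measured at 76.6, 82.8 and 73.0 CPM (counts scaled to library size by TMM) in Mock, at 71.0, 90.0 and 82.8 CPM in upCIN85, at 85.5, 87.2 and 82.5 CPM in siNeg and at 3.88, 8.96 and 9.77 CPM in siCIN85. The siCIN85 libraries were far below the siNeg libraries, whereas the libraries labelled upCIN85 overlapped Mock, and 3′ counts per gene do not separate a plasmid transcript from the gene's own. The direction of the overexpression arm therefore rests on the label and on the study's western blots of CIN85 protein in the pool, and not on these counts. The summed level of 10 measured mesenchymal and osteoblast markers was 1222 to 2620 CPM, with IBSP, bone sialoprotein, at most at 3 counts. Of 7 measured leukocyte markers, PTPRC, CD3E, LYZ and CSF1R had at most 3 counts in any library. The others had more, CD14 4 to 9 counts, ITGAM 0 to 10 and CD68 0 to 15. Among interferon-stimulated genes, 1 library of each siRNA group stood apart, siNeg replicate 1 with a summed level of 3279 CPM and siCIN85 replicate 1 with 1837 CPM, against 653 to 951 CPM in the other libraries.

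The interaction passed an adjusted p of 0.05 in edgeR's quasi-likelihood test for 122 genes (0.973% of those tested), of which 36 were higher (0.287%) and 86 lower (0.686%). At an unadjusted p below 0.05 there were 1818 genes. The 122 genes were sorted by their arms, an arm counting when its own unadjusted p in the same fit was below 0.05. In 70 genes both arms counted and had opposite signs, 22 of them with a positive interaction and 48 with a negative one. In 25 genes the upCIN85 arm alone counted, and in 27 the knockdown arm alone. No gene of the 122 had both arms counting with the same sign, but 12 had log2FC of the same sign with only 1 arm counting, 9 in the upCIN85 arm and 3 in the knockdown arm. Since a large difference between 2 effects favors genes whose effects have opposite signs, this sorting describes the genes and is no test of opposition. Over all genes, 162 (1.29%) had opposite signs with both unadjusted p below 0.05, and 189 (1.51%) had the same sign.

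**Figure D1:**
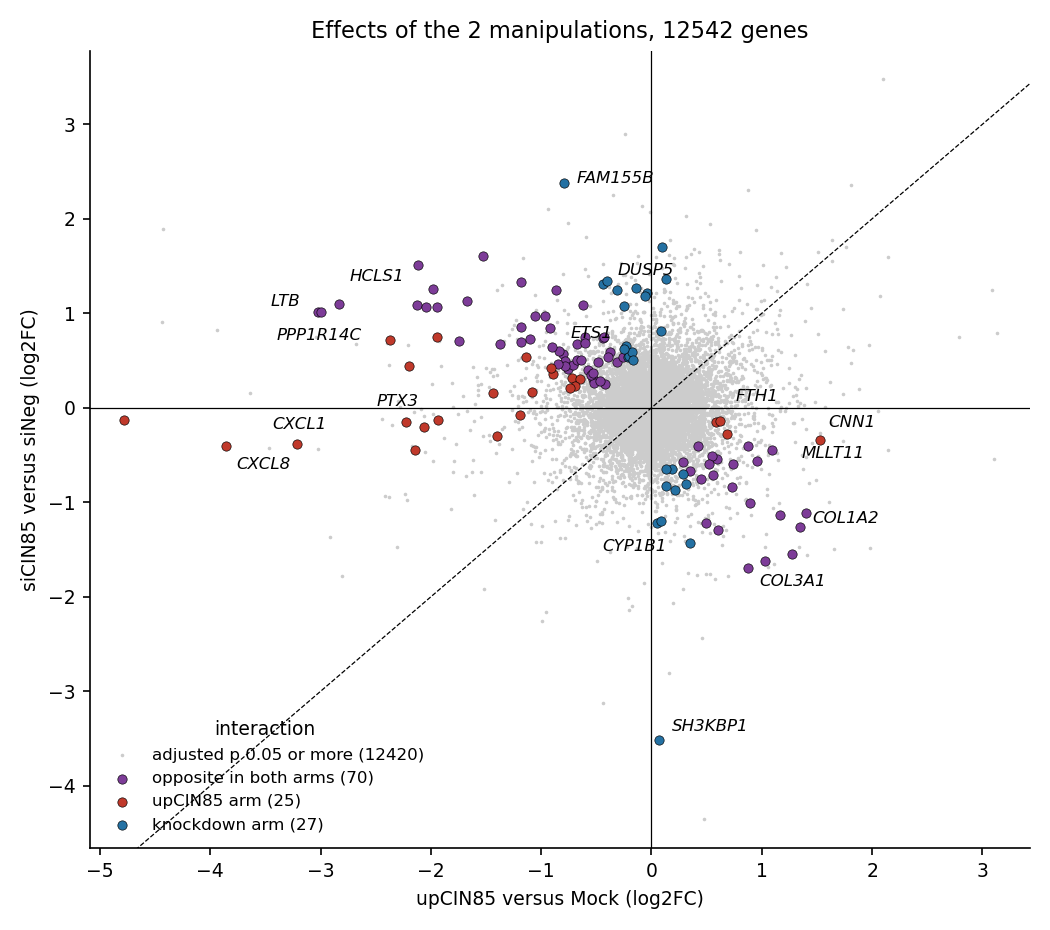
Log2FC in upCIN85 versus Mock (horizontal axis) against log2FC in siCIN85 versus siNeg (vertical axis) for the 12542 genes tested; gray points did not pass the interaction threshold, colored points are the 122 genes that did, by arm class, and the dashed line marks equal effects. The 70 genes of the class opposite in both arms lie in the upper left and lower right quadrants, the 25 genes of the upCIN85 arm lie near the horizontal axis, and the 27 of the knockdown arm near the vertical axis.

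The number of genes depended on single libraries. Leaving out upCIN85 replicate 3 gave 35 genes. The number was 37 without Mock replicate 2 or siCIN85 replicate 1, 45 without Mock replicate 3, 57 without siNeg replicate 2, 68 without upCIN85 replicate 1, 72 without Mock replicate 1 or siNeg replicate 1, and 339 without upCIN85 replicate 2. Of the 122 genes, 30 passed with any single library left out, 21 of them in the class opposite in both arms. The labels number the libraries of every group in the same way and state no pairs. Treating siNeg and siCIN85 libraries of equal number as pairs, called the block in the knockdown, gave 368 genes. Of these, 150 were higher and 218 lower, and all 122 were among them. The number opposite in both arms was then 167. Without a block it was 22 to 188 with single libraries left out: 22 without upCIN85 replicate 3, 24 and 29 without Mock replicates 2 and 3, 25 without siCIN85 replicate 1, 38 and 44 without siNeg replicates 2 and 3, 41 without upCIN85 replicate 1, 45 without Mock replicate 1 or siNeg replicate 1, and 188 without upCIN85 replicate 2.

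Which arm contributed more was measured in 2 ways, as the share of the interaction log2FC that came from upCIN85 and by the sum of both effects, which is away from 0 when opposed effects differ in size. In the class opposite in both arms the upCIN85 share had a median of 55.6%, with a range from 28.9% to 74.99%, and the sum passed for 0 of the 70 genes in edgeR's test (7 at an unadjusted p below 0.05, 0 in DESeq2, 2 with the block in the knockdown). In the upCIN85 arm the median share was 82.0% and the sum passed for 10 of 25 genes, and in the knockdown arm the median was 19.5% and the sum passed for 5 of 27. The effects shared a sign in 9 of these 25 genes and in 3 of these 27. For such genes the sum is the shared change, so these 2 counts are no measure of unequal arms. Over all genes the sum passed for 113 (0.901%). Of the 122 genes, 50 also passed in upCIN85 versus Mock (154 genes, 1.23%) and 36 in siCIN85 versus siNeg (131 genes, 1.04%). Both arms passed on their own for ETS1 and PLPP2, and neither arm passed for 38 genes, 37 of which were opposite in both arms.

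**Figure D2:**
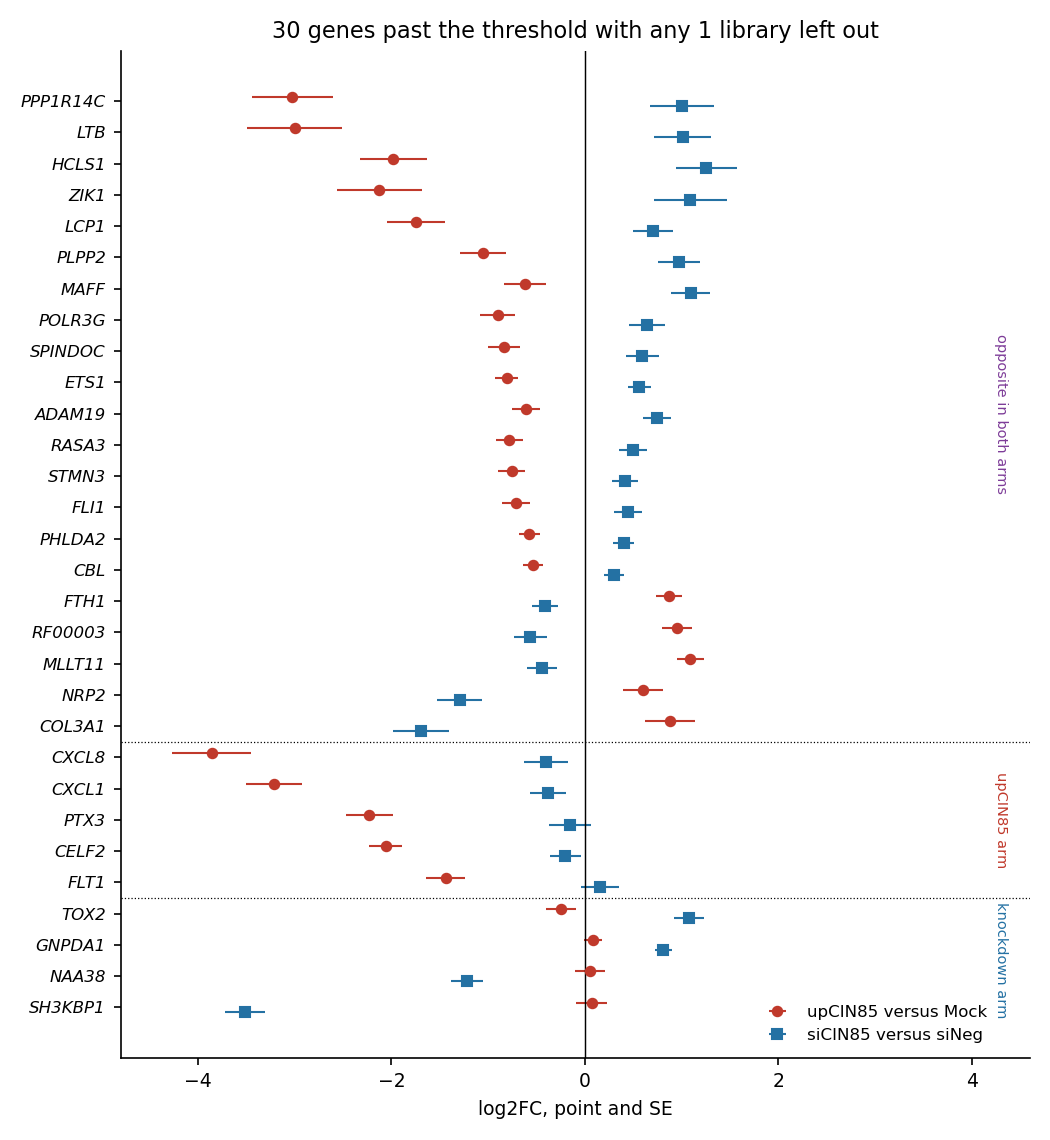
Log2FC with its SE in upCIN85 versus Mock (red circles) and siCIN85 versus siNeg (blue squares) for the 30 genes that passed the interaction threshold with any single library left out, grouped by arm class. In the class opposite in both arms the 2 effects lie on either side of 0 for every one of the 21 genes, and the sizes of the 2 effects were not shown to differ for any of the 21, as the sum of the effects passed for none of the class.

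Transcription factors of the ETS family were among the genes that were opposite in both arms with a negative interaction. ETS1 (ENSG00000134954, chromosome 11, 128458761 to 128587558, GRCh38), which drives invasion and matrix protease genes, was measured at 127, 138 and 126 CPM in Mock and 66.3, 90.5 and 66.6 CPM in upCIN85. In siNeg it was at 93.5, 95.1 and 103 CPM and in siCIN85 at 151, 146 and 135 CPM. The groups of neither arm overlapped, and 58.8% of the interaction log2FC of -1.37 (SE 0.17, adjusted p = 0.0013 in edgeR's test) came from upCIN85. FLI1, a related factor of blood and endothelial cells that lies next to ETS1 on chromosome 11, had 26.5 to 39.2 CPM in Mock, 19.0 to 21.9 in upCIN85, 33.7 to 38.1 in siNeg and 47.3 to 49.99 in siCIN85, again without overlap in either arm. The interaction of FLI1 was -1.16 (SE 0.21, adjusted p = 0.0122 in edgeR). MAFF, a small MAF factor induced by stress and growth factors, had an interaction of -1.71 (SE 0.30), of which 36.1% came from upCIN85, and its Mock and upCIN85 libraries overlapped. Each of these 3 genes passed with any library left out. Over the list of 24 tested mesenchymal transition factors, which holds ETS1 and FLI1, 3 were lower and 0 higher (0.686% and 0.287% of all genes), with a median interaction of -0.33 against 0.010 over all genes. The other was FOXC2, with an interaction of -0.95 (adjusted p = 0.0341 in edgeR), which passed in 3 of the 12 fits with a library left out (adjusted p up to 0.107 without upCIN85 replicate 3). The study listed ETS1 as opposite from these same libraries, and the list was written with earlier results known. Its count is therefore no independent evidence. The endothelial markers had a summed level of 15.5 to 29.8 CPM in siCIN85, 8.14 to 13.9 in siNeg, 9.60 to 14.2 in upCIN85 and 8.06 to 9.40 in Mock, with VWF at most at 3 counts, and their part in these results was not tested. In bulk RNA, fewer cells of a type and less RNA per cell cannot be told apart.

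Some regulators of actin that are typical of blood cells were also opposite in both arms with a negative interaction. HCLS1 (ENSG00000180353, chromosome 3, 121631399 to 121660927), the hematopoietic relative of cortactin, which stabilizes branched actin, was measured at 11.5, 15.1 and 11.6 CPM in Mock and at 2.97, 5.72 and 0.85 CPM in upCIN85. It was at 8.996, 8.55 and 7.55 CPM in siNeg and at 21.8, 21.4 and 16.9 CPM in siCIN85. Both arms were free of overlap, and the interaction was -3.24 (SE 0.47, adjusted p = 0.00338 in edgeR), with 61.2% from upCIN85. LCP1, the leukocyte plastin that bundles actin filaments, was at 7.30 to 9.12 CPM in Mock, 1.87 to 3.60 in upCIN85, 18.5 to 28.4 in siNeg and 32.7 to 50.7 in siCIN85. The interaction of LCP1 was -2.45 (SE 0.37, adjusted p = 0.00433 in edgeR), and its control levels differed as well, with a siNeg versus Mock log2FC of 1.53 (adjusted p = 0.00852 in edgeR). ARHGDIB had an interaction of -1.35 (SE 0.28, adjusted p = 0.0304 in edgeR) split evenly between the arms, 50.1% from upCIN85, where replicate 2 at 32.0 CPM lay within the Mock range. It passed in 5 of the 12 fits with a library left out, with an adjusted p of up to 0.0794 without Mock replicate 2. Of the 14 tested genes of the list of such regulators, 3 were lower and 0 higher (0.686% and 0.287% of all genes), with a median interaction of -0.42 against 0.010 over all genes. HCLS1 and ARHGDIB are among the genes that the study listed as opposite from these same libraries, and the list was written with earlier results known. The count is therefore no independent evidence of a group. The summed level of the leukocyte markers was 1.92 to 2.97 CPM in siNeg and 3.39 to 8.52 CPM in siCIN85, against 2.09 to 2.81 in Mock and 1.40 to 2.15 in upCIN85. Of the 7 measured, 4 (PTPRC, CD3E, LYZ and CSF1R) were at or near 0, while CD14, ITGAM and CD68 reached 9, 10 and 15 counts in a library. The part of these markers in the results was not tested.

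Signaling proteins were also found. CBL, the ubiquitin ligase that CIN85 binds, was at 148, 175 and 152 CPM in Mock, 106, 120 and 103 CPM in upCIN85, 149, 154 and 131 CPM in siNeg and 183, 182 and 170 CPM in siCIN85. The 2 arms did not overlap, and the interaction of -0.83 (SE 0.15, adjusted p = 0.0122 in edgeR) held with any library left out. The span of CBL overlaps that of MCAM on the opposite strand by 5398 bases, and whether counting used strand is not given in the sources used here. Of the 122 genes, 23 overlap a tested gene on the opposite strand in this way. Among the 34 tested genes of CIN85, CBL and their endocytosis partners, ARAP1, a GTPase-activating protein, was also lower (-0.95, adjusted p = 0.042 in edgeR, 2 of the 12 fits with a library left out), SH3KBP1 was higher, and the median was -0.09. RASA3, a GTPase-activating protein for RAS and RAP, fell in upCIN85 (-0.78, adjusted p = 0.0106) and had an interaction of -1.28 (SE 0.20, adjusted p = 0.00494 in edgeR). PPP1R14C, an inhibitor of protein phosphatase 1, had 5.09 to 6.77 CPM in Mock and 0.34 to 0.98 in upCIN85, and 2.34 to 5.13 CPM in siNeg against 5.54 to 9.71 in siCIN85, and its interaction of -4.04 (SE 0.54, adjusted p = 0.00205 in edgeR) was 74.99% from upCIN85. The upCIN85 values of PPP1R14C rest on 2 to 6 counts per library. PLPP2, a lipid phosphate phosphatase, passed in both arms and had nearly equal and opposite effects of -1.05 and 0.98, with an interaction of -2.03 (SE 0.32, adjusted p = 0.00494 in edgeR). PHLDA2, a pleckstrin homology domain protein of imprinted expression, had a smaller interaction of -0.97 (SE 0.15, adjusted p = 0.00494 in edgeR). UBASH3B, a phosphatase that binds CBL, and SH2B3, an inhibitory adaptor of cytokine receptors, had interactions of -0.79 and -0.97, and passed in 5 and 3 of the 12 fits with a library left out, with adjusted p values up to 0.0891 and 0.115 without upCIN85 replicate 3.

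**Figure D3:**
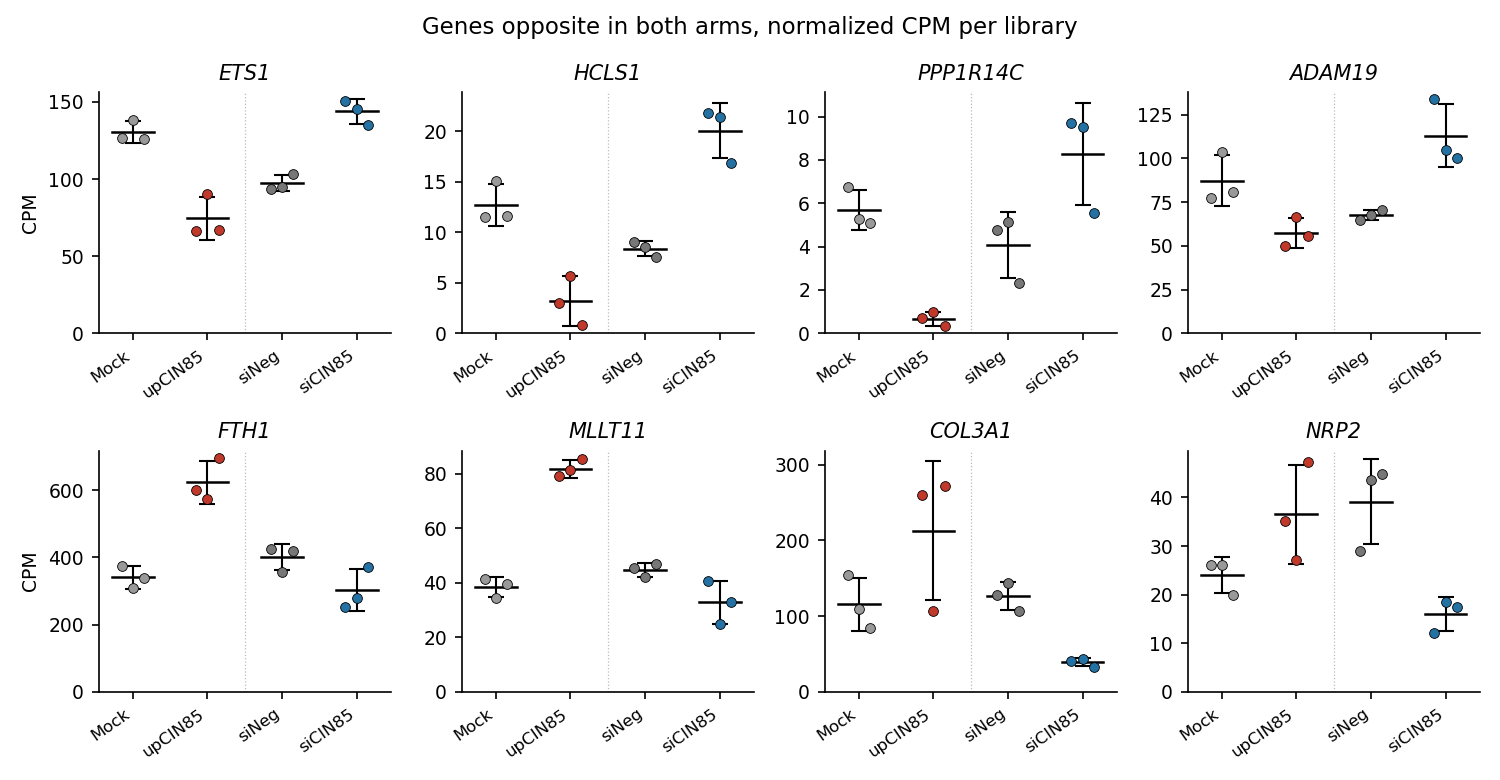
Normalized CPM in each library (points), with the group mean and SD, for 8 genes of the class opposite in both arms, with Mock and upCIN85 left of the dotted line and siNeg and siCIN85 right of it. ETS1, HCLS1, PPP1R14C and ADAM19 lie lower in upCIN85 and higher in siCIN85 than in their controls, and FTH1, MLLT11, COL3A1 and NRP2 the other way round; upCIN85 replicate 2 of COL3A1, at 107 CPM, lies within the Mock range.

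Secreted and cell surface proteins included LTB, a cytokine of the TNF family, which was at 5.83, 3.23 and 5.09 CPM in Mock, 0.35, 0.98 and 0.34 CPM in upCIN85, 8.75, 9.53 and 11.7 CPM in siNeg and 15.5, 14.5 and 30.4 CPM in siCIN85. The interaction of LTB was -4.01 (SE 0.58, adjusted p = 0.00338 in edgeR), with no overlap in either arm and 2 to 6 counts per upCIN85 library. ADAM19 (ENSG00000135074, chromosome 5, 157395534 to 157575775), a membrane-bound metalloprotease, was at 77.1, 104 and 80.5 CPM in Mock, 49.8, 66.5 and 55.8 in upCIN85, 64.7, 67.5 and 70.3 in siNeg and 134, 105 and 100 in siCIN85. Its interaction was -1.35 (SE 0.21, adjusted p = 0.0044 in edgeR), with an upCIN85 share of 44.8% and a sum of the effects of 0.14 (SE 0.21, adjusted p = 0.772 in edgeR). ADAM19 overlaps NIPAL4 on the opposite strand, which also passed, with -1.88 (adjusted p = 0.0403 in edgeR), so their reads may not be separate. ESM1, a proteoglycan secreted by endothelial cells, had an interaction of -3.63 (SE 0.64, adjusted p = 0.0121 in edgeR) and lost it without upCIN85 replicate 3 (adjusted p = 0.0553, range over the alternatives 3.74e-12 to 0.0553). KITLG, the ligand of the KIT receptor, EPHA2, an ephrin receptor, and PTHLH, the parathyroid hormone-related protein, had interactions of -1.29, -0.89 and -2.10, and passed in 3, 2 and 1 of the 12 fits with a library left out, with adjusted p values up to 0.103, 0.127 and 0.115 without upCIN85 replicate 3.

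The other genes of the 10 with the lowest interaction log2FC that were opposite in both arms were FRMD3, a FERM domain protein (-3.93, lost without upCIN85 replicate 3 at an adjusted p of 0.0556 in edgeR, range over the alternatives 1.12e-23 to 0.0556), ZIK1, a zinc finger protein (-3.21, at 0.17 to 0.82 CPM in upCIN85), and DHRS2, a mitochondrial reductase linked to p53 (-3.13). The interaction of DHRS2 did not pass without Mock replicate 3, siCIN85 replicate 1 or upCIN85 replicate 3, with an adjusted p of up to 0.0777. STMN3, a microtubule-destabilizing protein (-1.17), POLR3G, a subunit of RNA polymerase III (-1.54), and SPINDOC, a partner of the chromatin reader spindlin (-1.43), passed with any library left out and had no overlap in either arm. The 8 genes that the study listed as opposite (ADAM19, ARHGDIB, DHRS2, ESM1, ETS1, HCLS1, PHLDA2, PLPP2) were all lower in the interaction (8 of 8, against 0.686% of all genes), with a median of -1.70. They were chosen on these same libraries, so this is no independent evidence of their direction. Their median log2FC was -0.93 in upCIN85 and 0.86 in siCIN85.

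Promoters were examined for the letters of 3 motifs, GGANTTTCC of NF-κB, TGANTCA of AP-1 and CCGGAAG of the ETS family, on both strands of the 250 bases before the RefSeq start site (GRCh38.p14). A promoter was found for 91 of the 122 genes, 51 of them opposite in both arms. The ETS letters were present in 9 of these 51 (17.6%), against 8.82% of all 27305 promoters, and the AP-1 letters in 3 (5.88%), against 6.6%. All promoters include those of genes that did not pass the filter on low counts, so the compared sets are unlike, and the shares were not tested. The promoters of HCLS1, LTB and KITLG are shown 5′ to 3′ because each holds a different one of the motifs, AP-1 in HCLS1, NF-κB in LTB and ETS in KITLG, in capitals. A match is a description of the sequence and not a binding site.

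HCLS1 (chr3:121660904-121661153, minus strand): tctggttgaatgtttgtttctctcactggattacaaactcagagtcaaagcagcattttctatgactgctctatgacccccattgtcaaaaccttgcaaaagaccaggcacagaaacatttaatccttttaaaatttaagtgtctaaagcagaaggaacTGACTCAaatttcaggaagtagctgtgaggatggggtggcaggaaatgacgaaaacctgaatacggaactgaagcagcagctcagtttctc
LTB (chr6:31582426-31582675, minus strand): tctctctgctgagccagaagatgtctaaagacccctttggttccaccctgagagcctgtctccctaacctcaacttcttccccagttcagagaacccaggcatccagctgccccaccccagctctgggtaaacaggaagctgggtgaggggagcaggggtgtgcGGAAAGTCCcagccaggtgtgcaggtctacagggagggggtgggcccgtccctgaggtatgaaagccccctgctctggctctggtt
KITLG (chr12:88580472-88580721, minus strand): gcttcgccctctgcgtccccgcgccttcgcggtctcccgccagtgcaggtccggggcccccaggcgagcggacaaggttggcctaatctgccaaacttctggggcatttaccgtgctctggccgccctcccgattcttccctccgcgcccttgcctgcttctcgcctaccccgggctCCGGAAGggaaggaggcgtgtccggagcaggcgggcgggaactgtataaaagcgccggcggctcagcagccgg

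Fibrillar collagens were among the genes that were opposite in both arms with a positive interaction. COL3A1 (ENSG00000168542, chromosome 2, 188974320 to 189012746), type III collagen, was at 154, 110 and 84.3 CPM in Mock, 260, 107 and 272 CPM in upCIN85, 128, 144 and 107 CPM in siNeg and 40.3, 44.0 and 33.3 CPM in siCIN85. The siRNA groups did not overlap, siCIN85 being the lower, while upCIN85 replicate 2 lay within the Mock range. The interaction of COL3A1 was 2.57 (SE 0.39, adjusted p = 0.0044 in edgeR), 34.2% of it from upCIN85, and it passed with any library left out. COL1A2 and COL1A1, the chains of type I collagen, had interactions of 2.61 (SE 0.48, adjusted p = 0.0151 in edgeR) and 1.27 (SE 0.28, adjusted p = 0.0381 in edgeR). The level of COL1A2 was 160, 62.9 and 212 CPM in upCIN85 against 84.8, 44.8 and 41.9 in Mock, and 23.5, 18.8 and 19.8 CPM in siCIN85 against 49.2, 46.7 and 53.6 in siNeg. It did not pass without Mock replicate 2 or 3 (adjusted p up to 0.0579), and COL1A1 passed in 4 of the 12 fits with a library left out (adjusted p up to 0.12 without upCIN85 replicate 3). LOXL1, which crosslinks collagen and elastin, had an interaction of 1.01 (SE 0.23, adjusted p = 0.0478 in edgeR), with 124 to 171 CPM in siCIN85 against 220 to 250 in siNeg and overlapping Mock and upCIN85 libraries, and passed in 3 of the 12. In each of these 4 genes upCIN85 replicate 2 had the lowest level of its group.

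Of the 21 tested collagen genes 3 were higher and 0 lower (0.287% and 0.686% of all genes). Their median interaction was 0.13, with medians of -0.04 in upCIN85 and -0.37 in siCIN85, and it ranged from -0.08 without Mock replicate 2 to 0.34 without upCIN85 replicate 3. Of the 21 values 11 were positive and 10 negative. The study examined COL3A1 on the basis of these same libraries, and the list was written with earlier results known. The count of 3 is therefore no independent evidence about collagens. COL1A1 and COL1A2 also belong to the mesenchymal markers, whose summed level was 1951 to 2620 CPM in upCIN85, 1788 to 2265 in Mock, 1657 to 2104 in siNeg and 1222 to 1678 in siCIN85. Among the 37 tested matrix proteases, inhibitors and crosslinking enzymes, LOXL1 was higher, ADAM19 and PLAU, the urokinase, were lower (PLAU -0.92, adjusted p = 0.0396 in edgeR, 2 of the 12 fits with a library left out), and the median was 0.10. MMP2, a gelatinase, had 20.3, 11.4 and 21.4 CPM in upCIN85 against 11.5, 7.64 and 4.91 in Mock and 4.61, 2.89 and 6.602 CPM in siCIN85 against 9.996, 3.91 and 7.03 in siNeg. Its interaction of 1.70 did not pass (adjusted p = 0.133 in edgeR, range over the alternatives 0.000758 to 0.303). VEGFB, a vascular growth factor, and DLX2, a homeobox factor, which the study also examined, had interactions of -0.52 and -0.65 (adjusted p = 0.322 and 0.445 in edgeR, ranges 0.14 to 0.555 and 0.17 to 0.705). Of the 39 matrix glycoproteins and integrins, only BGN, the proteoglycan biglycan, passed, with -1.33 (adjusted p = 0.0462 in edgeR, 3 of the 12 fits).

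The remaining higher genes had varied roles. FTH1, the heavy chain of ferritin that stores iron, was at 375, 308 and 338 CPM in Mock, 601, 572 and 695 CPM in upCIN85, 426, 357 and 419 CPM in siNeg and 253, 280 and 372 CPM in siCIN85. It rose in upCIN85 (0.87, adjusted p = 0.00306 in edgeR), the siRNA groups overlapped, and the interaction was 1.28 (SE 0.19, adjusted p = 0.00338 in edgeR). The genome holds several processed copies of FTH1, between which reads can be split. MLLT11, a small protein known as a fusion partner in leukemia, was at 34.3 to 41.4 CPM in Mock and 79.0 to 85.5 in upCIN85, and at 42.0 to 46.9 CPM in siNeg and 24.9 to 40.5 in siCIN85, an interaction of 1.53 (SE 0.21, adjusted p = 0.00254 in edgeR), 71.2% from upCIN85. NRP2, a coreceptor of semaphorins and VEGF, was at 26.1, 26.1 and 19.8 CPM in Mock, 35.1, 27.1 and 47.3 in upCIN85, 28.99, 43.5 and 44.8 in siNeg and 12.1, 18.5 and 17.4 in siCIN85. It fell in siCIN85 (-1.29, adjusted p = 0.016 in edgeR), and its interaction was 1.90 (SE 0.31, adjusted p = 0.00771 in edgeR). RF00003, annotated as a copy of the U1 small nuclear RNA, had an interaction of 1.52 (SE 0.23) but shares its sequence with near-identical copies and is uncertain.

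Among the 10 highest values, PTPRE, a receptor tyrosine phosphatase (2.65), did not pass without Mock replicate 2, siNeg replicate 2 or upCIN85 replicate 3 (adjusted p up to 0.0646). VASH1, an angiogenesis inhibitor and tubulin carboxypeptidase (2.82), CDH3, the placental cadherin (2.52), ARTN, a ligand of the GDNF family (2.29), and ASS1, an enzyme of arginine synthesis (1.90), passed in 2, 2, 2 and 5 of the 12 fits with a library left out, with adjusted p values up to 0.118, 0.115, 0.115 and 0.0977, the first without Mock replicate 2 and the others without upCIN85 replicate 3. VASH1, CDH3 and ARTN were measured below 13 CPM in every library. The summed level of the epithelial markers was 72.8 to 86.6 CPM in upCIN85 and 47.45 to 59.05 CPM in the other libraries, and its part in the cadherin result was not tested. Of 32 cell junction genes, CDH3 was higher and CDH4 lower, with a median of 0.09.

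Chemokines and other NF-κB target genes led the class in which the upCIN85 arm alone counted. CXCL1 (ENSG00000163739), a neutrophil chemokine, was at 26.5, 15.4 and 21.4 CPM in Mock, 2.10, 2.94 and 1.70 CPM in upCIN85, 102, 115 and 89.1 CPM in siNeg and 64.5, 103 and 68.4 CPM in siCIN85. CXCL8 (ENSG00000169429), interleukin 8, was at 20.7, 15.1 and 24.2 CPM in Mock, 0.874, 1.63 and 1.53 CPM in upCIN85, 116, 196 and 198 CPM in siNeg and 89.3, 181 and 116 CPM in siCIN85. Both genes fell in upCIN85 and stayed within overlapping ranges after knockdown. The interaction was -2.83 (SE 0.35, adjusted p = 0.0013 in edgeR) for CXCL1 and -3.46 (SE 0.48, adjusted p = 0.00287) for CXCL8, with upCIN85 shares of 113.4% and 111.6%, that is, with knockdown effects of the same sign as the plasmid's. The sum of the effects passed too, at -3.59 and -4.26 (adjusted p = 6.11e-05 and 0.000227 in edgeR). The controls started from different levels, with a siNeg versus Mock log2FC of 2.27 for CXCL1 and 3.09 for CXCL8 (adjusted p = 1.68e-05 and 1.1e-05 in edgeR). siNeg versus Mock passed for 66 of all genes (0.526%), and for 5 of the 25 genes of this class, 2 of the knockdown class and 2 of the class opposite in both arms. It shares all control libraries with the interaction.

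The promoters of CXCL1, CXCL8 and IL32 are shown, on the same build and with the same motifs in capitals, because these genes fell in upCIN85 and hold the NF-κB letters, at 2 places in IL32. CXCL1 also holds the ETS letters and CXCL8 the AP-1 letters, and no matches overlap. The NF-κB letters were present in 5 of the 22 promoters found for this class (22.7%), in 1 of 51 (1.96%) in the class opposite in both arms and in 0 of 18 in the knockdown class, against 1.47% of all promoters. Here too all promoters include those of genes that were not tested.

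CXCL1 (chr4:73869143-73869392, plus strand): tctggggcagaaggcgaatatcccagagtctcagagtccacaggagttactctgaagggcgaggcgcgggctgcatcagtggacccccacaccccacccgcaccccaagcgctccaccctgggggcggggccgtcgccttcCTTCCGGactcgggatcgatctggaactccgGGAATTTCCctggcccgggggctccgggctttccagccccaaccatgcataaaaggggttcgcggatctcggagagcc
CXCL8 (chr4:73740319-73740568, plus strand): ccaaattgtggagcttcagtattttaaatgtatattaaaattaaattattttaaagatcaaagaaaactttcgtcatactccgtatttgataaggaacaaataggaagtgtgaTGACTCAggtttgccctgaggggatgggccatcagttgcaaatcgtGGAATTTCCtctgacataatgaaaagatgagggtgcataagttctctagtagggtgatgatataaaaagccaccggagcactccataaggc
IL32 (chr16:3065153-3065402, plus strand): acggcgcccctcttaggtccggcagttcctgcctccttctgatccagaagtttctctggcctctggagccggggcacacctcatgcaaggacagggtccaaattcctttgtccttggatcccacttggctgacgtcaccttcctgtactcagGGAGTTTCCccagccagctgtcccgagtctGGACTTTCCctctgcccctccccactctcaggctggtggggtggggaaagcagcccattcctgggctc

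PTX3, a secreted pentraxin, was at 72.0 to 80.0 CPM in Mock and 8.50 to 23.0 in upCIN85, and at 116 to 142 CPM in siNeg and 90.0 to 152 in siCIN85, with an interaction of -2.07 (SE 0.32, adjusted p = 0.00494 in edgeR). NFKBIZ, an atypical IκB protein (-1.12, adjusted p = 0.0249), BIRC3, an inhibitor of apoptosis (-1.10, adjusted p = 0.0381), and IL32, a cytokine (-1.71, adjusted p = 0.0483), fell in upCIN85 by 1.19, 1.40 and 2.15 on the log2 scale in edgeR. Their interactions passed in 6, 2 and 1 of the 12 fits with a library left out, with adjusted p values up to 0.0656, 0.0918 and 0.151 without upCIN85 replicate 3. Of the 24 tested genes of the NF-κB list 5 were lower in the interaction (0.686% of all genes) and 0 higher, with a median of -0.82. The controls of the list differed, with 13 of the 24 genes higher in siNeg than in Mock (0.526% of all genes in either direction) and a median siNeg versus Mock log2FC of 1.09. Their medians were -1.19 in upCIN85, where 9 genes fell, and -0.28 in siCIN85, where 1 fell, and no gene of the list was opposite in both arms. The block in the knockdown raised the 5 to 9. LTB, described above, is not on that list. MIR3142HG, the host gene of the microRNA miR-146a, had 2, 0 and 0 counts in the upCIN85 libraries, so no fold change is given.

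CELF2, an RNA-binding protein that regulates splicing, was at 63.4, 77.4 and 70.7 CPM in Mock, 17.0, 19.3 and 14.4 in upCIN85, 94.0, 90.4 and 59.9 in siNeg and 67.2, 79.5 and 65.8 in siCIN85. For CELF2 the siNeg versus Mock log2FC was 0.21 (adjusted p = 0.628 in edgeR), and its interaction was -1.85 (SE 0.23, adjusted p = 0.0013 in edgeR), 111.0% from upCIN85. FLT1, a VEGF receptor, fell from 55.4 to 84.5 CPM in Mock to 18.7 to 32.4 in upCIN85, while its siRNA groups overlapped, and had an interaction of -1.59 (SE 0.28, adjusted p = 0.0121 in edgeR). These genes and CXCL1, CXCL8 and PTX3 passed with any library left out. NFE2L3, a transcription factor of the NRF family (-1.26), did not pass without Mock replicate 2 (adjusted p = 0.058 in edgeR, range over the alternatives 0.000958 to 0.058), and CDH4, the retinal cadherin (-2.65), did not without Mock replicate 2, siCIN85 replicate 1 or upCIN85 replicate 3 (adjusted p up to 0.065). The 4 genes higher in this class were TRIM44, CNN1, AKR1B1 and STMP1. CNN1, the smooth muscle calponin, was at 35.4, 59.2 and 37.4 CPM in Mock, 113, 79.4 and 189 in upCIN85, 30.0, 43.7 and 52.9 in siNeg and 31.3, 34.4 and 34.6 in siCIN85. It was the only one of 35 SRF and YAP target genes to pass, with 1.86 (adjusted p = 0.0321 in edgeR, 5 of the 12 fits with a library left out, up to 0.0918 without siCIN85 replicate 1), and the list's median was 0.04.

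**Figure D4:**
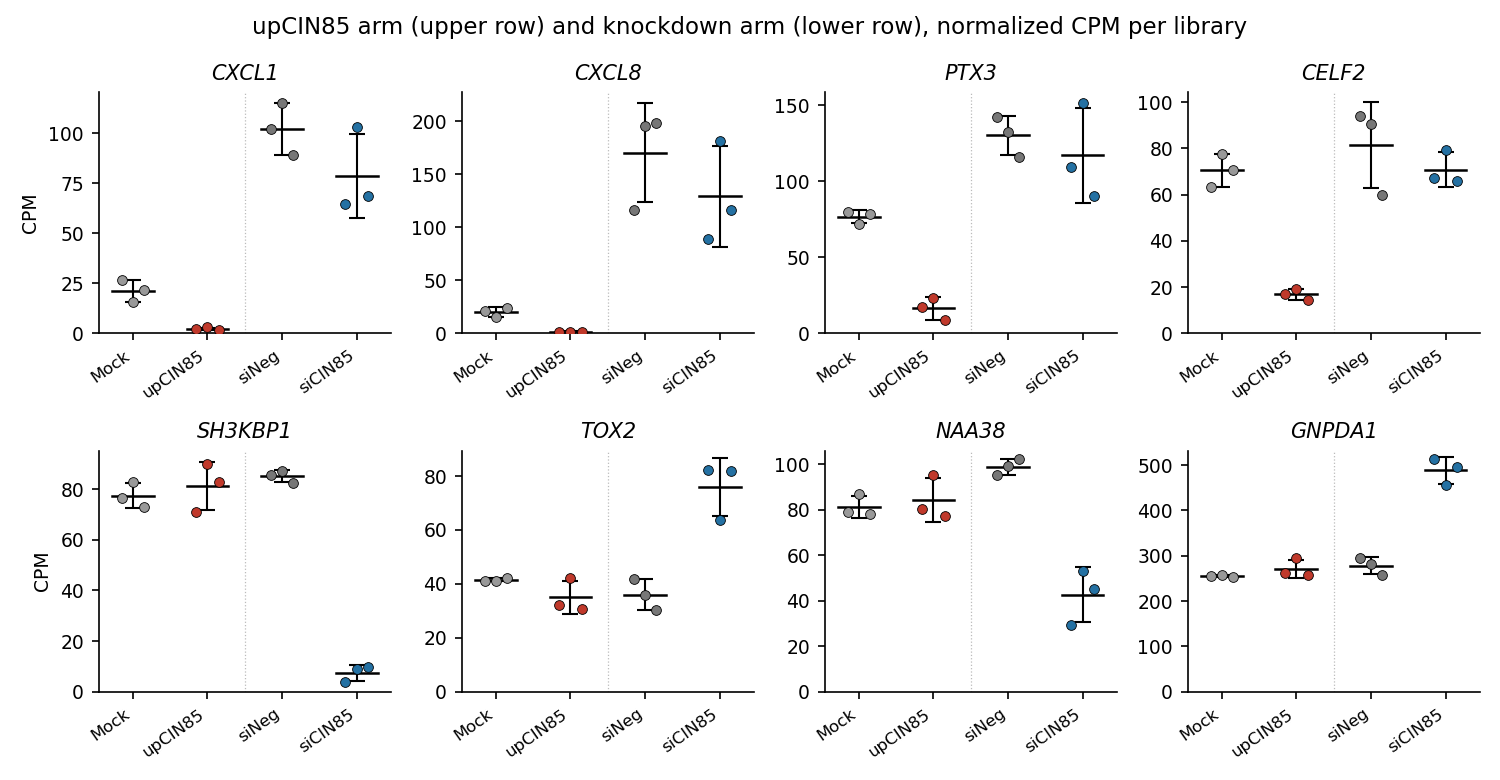
Normalized CPM in each library (points), with the group mean and SD, for 4 genes of the upCIN85 arm (upper row) and 4 of the knockdown arm (lower row). CXCL1, CXCL8, PTX3 and CELF2 fell in upCIN85 and overlapped between the siRNA groups, with CXCL1 and CXCL8 at higher levels in siNeg than in Mock; in the lower row the siCIN85 libraries stand apart from the other 9.

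In the knockdown arm SH3KBP1 itself came first, with an interaction of 3.58 (SE 0.26, adjusted p = 1.64e-06 in edgeR), 1.9% of it from upCIN85. TOX2, an HMG-box factor, was at 41.2, 41.2 and 42.3 CPM in Mock, 32.0, 42.2 and 30.8 in upCIN85, 41.7, 35.9 and 30.5 in siNeg and 82.3, 63.6 and 81.9 in siCIN85, and rose in siCIN85 by a log2FC of 1.07 (adjusted p = 0.00427 in edgeR). NAA38, a subunit of an N-terminal acetyltransferase, was at 78.2 to 86.9 CPM in Mock, 77.5 to 95.3 in upCIN85, 95.2 to 102 in siNeg and 29.4 to 53.2 in siCIN85, with an interaction of 1.27 (SE 0.22, adjusted p = 0.0121 in edgeR). GNPDA1, glucosamine-6-phosphate deaminase, was at 253 to 257 CPM in Mock, 258 to 295 in upCIN85, 258 to 295 in siNeg and 456 to 514 in siCIN85, with an interaction of -0.73 (SE 0.13, adjusted p = 0.0129 in edgeR). These 4 genes passed with any library left out. The sum of the effects passed for SH3KBP1, NAA38, GNPDA1, SERPINB7 and G0S2. In GNPDA1 the effects shared a sign (0.09 in upCIN85 and 0.81 in siCIN85), and the sum is the shared change. For the other genes of the class with effects of opposite sign, the arms were not shown to differ in size.

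FAM155B (-3.17), VANGL1, a planar polarity protein (1.07), CYP1B1, a cytochrome P450 (1.77), and PLEKHA2, a phosphoinositide-binding protein (0.97), passed in 10, 9, 8 and 7 of the 12 fits with a library left out, with adjusted p values up to 0.0745, 0.0613, 0.0646 and 0.0683. The first and the last of these maxima were without Mock replicate 2 and the others without upCIN85 replicate 3. FAM155B was at 1.82 to 2.75 CPM in siNeg and 6.87 to 16.5 in siCIN85, with 1.05 to 3.90 CPM in the plasmid experiment.

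Feedback genes of the ERK pathway, which damp or carry on growth factor signals, mixed this class with the class opposite in both arms. Of 32 tested genes of the ERK feedback and immediate response list, 5 were lower in the interaction (0.686% of all genes) and 0 higher, and the median was -0.80. The list's medians were -0.11 in upCIN85 and 0.56 in siCIN85, with 3 genes that fell in upCIN85 and 6 that rose in siCIN85 (1.23% and 1.04% of all genes in either direction). ETS1, PHLDA2 and EPHA2 were opposite in both arms. The study listed ETS1 and PHLDA2 as opposite from these same libraries and also examined EPHA2, and the list was written with earlier results known. The count is therefore no independent evidence about the list. DUSP5, a nuclear ERK phosphatase, was at 29.5, 51.1 and 27.7 CPM in Mock, 18.2, 34.3 and 29.2 in upCIN85, 27.2, 43.7 and 47.1 in siNeg and 106, 75.2 and 117 in siCIN85, and ETV4, an ETS factor of the PEA3 group, was at 10.2 to 13.2, 5.27 to 12.9, 10.7 to 11 and 21.1 to 30.1 CPM in the same order. Both had an interaction of -1.75, with adjusted p values of 0.0331 and 0.0304 in edgeR and upCIN85 shares of 23.3% and 25.3%. They passed in 5 and 3 of the 12 fits with a library left out (adjusted p up to 0.0984 and 0.0852 without Mock replicate 2). With the block in the knockdown 11 genes of the list were lower. RRAGD, a GTPase that activates mTORC1 at the lysosome, had an interaction of -1.25 (adjusted p = 0.0381 in edgeR) with only 3.2% from upCIN85, passed in 3 of the 12 fits with a library left out (adjusted p up to 0.109 without siCIN85 replicate 1), and was the sole lower gene among 39 lysosome and mTORC1 regulators, where FTH1 was higher.

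**Figure D5:**
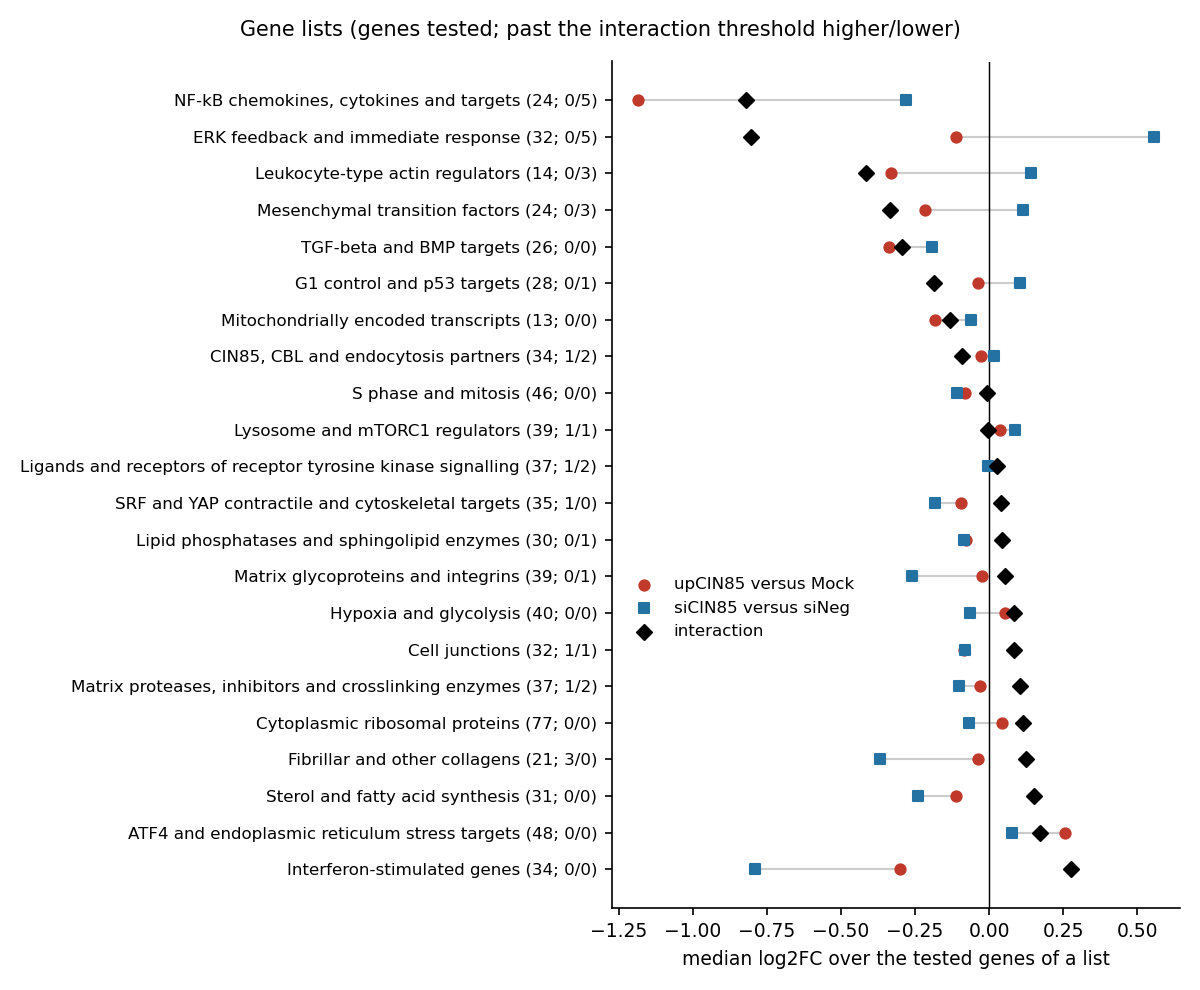
Median log2FC over the tested genes of 22 gene lists in upCIN85 versus Mock (red circles), in siCIN85 versus siNeg (blue squares) and in the interaction (black diamonds); the numbers in parentheses are the genes tested and those past the interaction threshold, higher/lower. The NF-κB list, at -0.82, and the ERK list, at -0.80, have the lowest interaction medians, the first with its upCIN85 median at -1.19 and the second with its siCIN85 median at 0.56.

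In 8 of the 22 lists no gene passed the interaction in edgeR's test. With the block in the knockdown 1 gene passed in each of the TGF-β, ATF4 and hypoxia lists, 2 in the interferon list and 0 in the other 4. Targets of TGF-β and BMP (26 tested) had a median of -0.30, with 6 genes at an unadjusted p below 0.05 and 1 called by DESeq2. For ATF4 and endoplasmic reticulum stress targets (48 tested) the median was 0.17, with 9 and 0 such genes, for hypoxia and glycolysis (40) 0.08, with 9 and 0, and for sterol and fatty acid synthesis (31) 0.15, with 1 and 0. Genes of S phase and mitosis (46) had a median of -0.01, with 1 and 0, cytoplasmic ribosomal proteins (77) one of 0.11, with 5 and 0, and mitochondrially encoded transcripts (13) one of -0.13, with 0 and 0. The interferon-stimulated genes (34) had a median of 0.28, with 2 and 1, and this median was -0.65 without siNeg replicate 1 and 0.95 without siCIN85 replicate 1, the libraries with high interferon-stimulated genes. Of the other lists, G1 control and p53 targets (28 tested) had 1 lower gene, DHRS2, lipid phosphatases and sphingolipid enzymes (30) had PLPP2, and ligands and receptors of receptor tyrosine kinase signaling (37) had NRP2 higher and EPHA2 and FLT1 lower, with medians of -0.19, 0.04 and 0.03.

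Genes that moved in the same direction in both arms set the contrast to the interaction. Of the 189 with both unadjusted p below 0.05, the sum of the effects passed for 58, 25 higher and 33 lower. The 5 with the smallest p of the sum were CLDN1, a tight junction protein, NFKBIA, the IκBα inhibitor, UGT8, a galactosyltransferase of glycolipid synthesis, CNTNAP1, a neuronal surface protein, and MCAM, an adhesion molecule. NFKBIA was at 189, 193 and 213 CPM in Mock, 96.2, 98.2 and 110 in upCIN85, 281, 344 and 292 in siNeg and 198, 268 and 211 in siCIN85, so both manipulations went with lower levels than their control. Its log2FC was -0.97 (adjusted p = 0.000825 in edgeR) in upCIN85 and -0.44 (adjusted p = 0.0802) in siCIN85, and the sum was -1.41 (adjusted p = 0.000408). The interactions of these 5 genes lay between -0.93 for UGT8 and 0.40 for CLDN1, with adjusted p from 0.118 for UGT8 to 0.832 for MCAM in edgeR. The interaction of NFKBIA did not pass in the main fit (adjusted p = 0.144 in edgeR), and it passed in 0 of the 12 fits with a library left out. With the block in the knockdown it passed (adjusted p = 0.0438, range over the alternatives 0.00972 to 0.268). Whether its effects differed in size while sharing a sign therefore depended on the fit. UGT8 had an adjusted p of 0.0588 with this block and 0.0253 with a block in both experiments (range over the alternatives 0.0253 to 0.307).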

How the data were processed

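Libraries of HOS cells (4 groups of 3) were made with a 3′ end kit. The deposited values are raw counts of reads per gene, which the authors made with featureCounts; the submitters' processing notes name cutadapt 4.3, STAR 2.7.3a, Picard 2.25.6, Subread 2.0 and GRCh38. The annotation release and any collapsing of molecular identifiers are not given in the sources used here. Identifiers were named with GENCODE 29 (25046 of 25141 matched). Group means were fitted to all 12 libraries in R 4.3.3 with edgeR 4.0.16 (filterByExpr with a minimum count of 10 and a minimum total of 15, TMM, quasi-likelihood, 8 residual degrees of freedom). The contrasts were the interaction, the sum of both effects, each arm and siNeg minus Mock; p-values are two-sided, with Benjamini-Hochberg adjustment over 12542 genes and a threshold of 0.05. CPM are TMM-scaled, except for summed marker and interferon levels, which use library totals. The fit was tested on simulated data, and no library was a duplicate of another of its group. Libraries of different groups were not compared in this way.

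The deviations of siNeg and siCIN85 libraries of the same number were correlated (r = 0.353, 0.269 and 0.446), against -0.287 to -0.0589 between different numbers. For Mock and upCIN85 r was 0.326, 0.227 and 0.0989, against -0.298 to 0.0303 between different numbers. The labels number all groups alike and name no pairing. The main fit used none, and blocks in the knockdown and in both experiments were run as alternatives. The alternatives were RLE size factors, no filter, 10 counts in every library, replicate blocks, thinning to 3540641 counts, DESeq2 1.42.0 and each library left out. The members and the 22 functional and 4 marker lists were chosen with earlier results of these data known, so the counts and medians of the lists are descriptions and no independent evidence. Genes were named by rule: SH3KBP1, the 10 highest and 10 lowest values, the genes of smallest p in each arm class, called list members, the study's genes, and the 5 leading genes of the same direction. UBASH3B, SH2B3, KITLG, PTHLH and IL32 lie outside it and were chosen after their values were seen.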

Additional observations from a re-analysis of the deposited data

How the results depend on the processing

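The counts of genes past the threshold moved with the processing. In the order interaction, higher, lower, opposite in both arms, sum, upCIN85 versus Mock, siCIN85 versus siNeg and siNeg versus Mock, they were 554, 263, 291, 222, 689, 637, 617 and 376 with no filter on low counts. With the replicate block in both experiments they were 918, 406, 512, 346, 1195, 1035, 968 and 655. Blocking siNeg and siCIN85 libraries by number, but not the plasmid libraries, gave 368, 150, 218, 167, 546, 545, 429 and 362. DESeq2 gave 269, 108, 161, 103, 304, 311, 298 and 183. Thinning to the smallest library gave 54 lower genes and 91 in upCIN85 versus Mock. The share of higher genes among those of the interaction was 29.5%, against 47.5% with no filter, 44.2% and 40.8% with the blocks and 40.1% in DESeq2. With single libraries left out the counts ranged from 35 to 339 for the interaction, 8 to 139 for higher, 27 to 200 for lower, 22 to 188 for opposite in both arms, 24 to 434 for the sum, 28 to 262 for upCIN85 versus Mock, 9 to 360 for siCIN85 versus siNeg and 7 to 129 for siNeg versus Mock. The cause of these differences was not tested. RLE size factors and a minimum of 10 counts in every library moved no count by over 1.5 times, and no named gene changed the sign of its interaction under any alternative run. Genes with few counts in upCIN85, such as PPP1R14C, LTB, ESM1 and ZIK1, are limited by depth.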
